A study of Mus musculus with 2 samples.

Results

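In 2 libraries of neonatal mouse adrenal gland, 10 genes that mark fat cells were read. They were chosen by symbol: the brown fat markers Ucp1, Cidea, Dio2, Elovl3 and Prdm16, and the white or shared fat markers Adipoq, Plin1, Fabp4, Cidec and Lep. All 10 were present among the 55536 annotated genes of the deposited tables. The libraries were made from 300 ng of total RNA each, taken from adrenal gland tissue of female mice at 4 days of age. The animals were B6CASTF1/J, a cross of a laboratory strain with a wild-derived strain, and the labels name no treatment, transgene or mutation. They form 1 group of 2 biological replicates, so the text describes levels and how far the animals differed, and it holds no test between conditions. The label texts do not agree on which animal gave replicate 2, and both samples carry the same donor record.

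Brown fat cells burn fuel to make heat. Noradrenaline raises cyclic AMP in the cell, fatty acids are released from lipid droplets, and the uncoupling protein of the inner mitochondrial membrane, encoded by Ucp1, lets protons back without making ATP. White fat cells store triglyceride in a single large droplet and secrete hormones such as adiponectin and leptin. Brown and white fat cells share the droplet coat protein perilipin and the fatty acid binding protein made from Fabp4. Fabp4 is also made by capillary endothelium and macrophages. In newborn mice the fat pad around the kidney and adrenal gland contains brown fat cells.

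Upstream sequences of 4 members are shown because they include brown and white markers at high and low levels, and differ in the short motifs known from studies of fat gene control. They are the 250 bases before the RefSeq start site, from the build GRCm38.p6, written 5′ to 3′ on the gene's strand. These are reference sequences, and the alleles of the crossed animals were not read. Capitals mark matches on either strand to the cyclic AMP response element TGACGTCA, its shorter core TGACG, the C/EBP palindrome TTGCGCAA, the TATA box TATAAA, the CCAAT box CCAAT and the nuclear receptor core site AGGTCA. The full response element contains this core on both strands.
Ucp1 (chr8:83290098-83290347, plus strand): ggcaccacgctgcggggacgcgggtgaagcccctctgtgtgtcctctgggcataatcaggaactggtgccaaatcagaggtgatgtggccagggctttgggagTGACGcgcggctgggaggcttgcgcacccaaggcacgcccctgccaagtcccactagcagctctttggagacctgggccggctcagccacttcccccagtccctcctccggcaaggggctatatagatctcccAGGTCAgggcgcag
Dio2 (chr12:90739039-90739288, minus strand): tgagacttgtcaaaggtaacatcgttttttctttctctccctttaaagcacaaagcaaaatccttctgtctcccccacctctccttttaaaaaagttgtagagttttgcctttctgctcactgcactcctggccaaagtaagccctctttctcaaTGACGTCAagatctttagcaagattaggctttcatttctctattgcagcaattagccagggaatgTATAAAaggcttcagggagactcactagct
Adipoq (chr16:23146286-23146535, plus strand): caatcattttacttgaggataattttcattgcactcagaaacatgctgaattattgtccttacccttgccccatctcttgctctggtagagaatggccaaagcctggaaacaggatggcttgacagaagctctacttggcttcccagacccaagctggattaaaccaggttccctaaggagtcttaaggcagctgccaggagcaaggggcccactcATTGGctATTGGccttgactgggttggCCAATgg
Lep (chr6:29059971-29060220, plus strand): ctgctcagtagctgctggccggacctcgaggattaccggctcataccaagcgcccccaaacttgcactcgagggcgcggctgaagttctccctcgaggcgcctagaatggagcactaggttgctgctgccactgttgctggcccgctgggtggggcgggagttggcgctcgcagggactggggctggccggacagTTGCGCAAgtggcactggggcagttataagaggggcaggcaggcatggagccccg

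The stretch before Ucp1 held TGACG, beginning 147 bases before the start, and AGGTCA, beginning 14 bases before it. That before Dio2 held the full TGACGTCA, beginning 95 bases before the start, and TATAAA, beginning 30 bases before it. That before Adipoq held CCAAT at 3 places, and that before Lep held TTGCGCAA, beginning 55 bases before the start. Over the 32851 stretches of this length in the RefSeq table, TGACGTCA stood in 1.55%, TGACG in 17.8%, TTGCGCAA in 0.164%, TATAAA in 12.4%, CCAAT in 33.85% and AGGTCA in 14.02%. The start site RefSeq gives for Dio2 lies upstream of the gene start in the GENCODE annotation used by the deposited tables. Stretches were read for 7 of the 10 members. Elovl3 and Fabp4 had no entry. Cidea lies on chromosome 18, which was left out of the search, so whether it has an entry was not read. Prdm16, Plin1 and Cidec had entries that are not shown: that of Prdm16 held 1 CCAAT, and those of Plin1 and Cidec held none of the motifs. A match is a string of letters and was not tested as a binding site.

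The libraries held genes of the adrenal gland and, at levels that differed between the animals, genes of other organs. The 7 adrenal cortex genes, among them Star and Cyp11a1, gave a summed level of 6068 TPM in replicate 1 and 6684 TPM in replicate 2. TPM is a gene's share of the library per unit of length, scaled to the same total in each library. Depth was 31838341 expected counts in replicate 1 and 32931868 in replicate 2. For replicates 1 and 2 the summed levels were 3611 and 0.49 TPM over 5 pancreas genes, 86.4 and 8.83 TPM over 5 kidney genes, 367 and 2299 TPM over 8 skeletal muscle genes, and 106 and 449 TPM over 5 liver genes. Cela2a, Prss2 and Ins2 of the pancreas list had no expected count in replicate 2. In a second deposited quantification Cela2a and Ins2 measured 0.113 and 0.318 TPM in that replicate, and Prss2 measured 0.

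Ucp1 was among the more abundant genes of both libraries. It measured 131 TPM in replicate 1 and 116 TPM in replicate 2, a mean of 124 ± 10.2 TPM (SD, n = 2), on 6190 and 5695 expected counts. It ranked 437 among 22015 nuclear protein-coding genes, of which 13054 reached 1 TPM in both animals. The log2 ratio of replicate 2 over replicate 1 was -0.12, with a 95% counting interval of -0.18 to -0.07. Replicate 1 was the higher, by 1.09-fold. Ucp1 (ENSMUSG00000031710.4; mm10 chr8:83290352-83298452, plus strand) has 1 annotated transcript of 6 exons, 1636 bases long. Counting intervals cover sampling of reads and not the spread between animals.

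Cidea, whose protein sits on lipid droplets and helps them fuse in brown fat, measured 34.7 TPM in replicate 1 and 45.9 TPM in replicate 2, a mean of 40.3 ± 7.94 TPM (SD, n = 2). It was higher in replicate 2, with a log2 ratio of 0.45 (0.34 to 0.56), opposite in direction to Ucp1. The log2 ratio of the Ucp1 level to the Cidea level was 1.92 in replicate 1 and 1.34 in replicate 2. Cidea (ENSMUSG00000024526.9; chr18:67343604-67367785, plus strand) has 1 annotated transcript of 5 exons.

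Prdm16 and Dio2 were low. Prdm16, a transcriptional regulator of brown fat identity, measured 6.16 TPM in replicate 1 and 3.74 TPM in replicate 2, a mean of 4.95 ± 1.71 TPM (SD, n = 2). Its expected counts were 781 and 581, and the log2 ratio from counts was -0.43 (-0.59 to -0.27). The log2 ratio of its deposited TPM was further from 0, at -0.72. The mean transcript length in the table was 4215 bases in replicate 1 and 4979 bases in replicate 2, and the short transcript of 757 bases held 39.2% and 24.9% of the gene's TPM. In the second quantification that transcript held 17.1% and 16.2%, and the gene measured 12.1 and 9.08 TPM. Dio2, the deiodinase that makes active thyroid hormone inside the cell, measured 2.29 TPM and 1.92 TPM in replicates 1 and 2, on 403 and 350 counts. Its interval, -0.42 to 0.0029 around a log2 ratio of -0.21, included no difference. Both are minus-strand genes, Prdm16 (ENSMUSG00000039410.16) at chr4:154316125-154636873 and Dio2 (ENSMUSG00000007682.6) at chr12:90724552-90738438.

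Elovl3, a fatty acid elongase induced in brown fat by cold, was nearly absent. It had 5 counts in replicate 1 (exact 95% Poisson interval 1.62 to 11.7) and 7 in replicate 2 (2.81 to 14.4), which gave 0.11 and 0.15 TPM. At these counts a difference between the animals was not detectable, as the interval of its log2 ratio ran from -1.39 to 2.48. Pitx3, a gene on the other strand whose end overlaps Elovl3 (ENSMUSG00000038754.5; chr19:46131897-46135694, plus strand), had 8 and 18 counts. Cidea, Dio2 and Prdm16 also overlap genes on the other strand, each with at most 7 counts in either library.

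Fabp4 was the most abundant of the 10. It measured 318 TPM in replicate 1 and 382 TPM in replicate 2, a mean of 350.0 ± 44.95 TPM (SD, n = 2). Its rank was 102 of the 22015 protein-coding genes. Its log2 ratio was 0.29 (0.25 to 0.33), higher in replicate 2. The gene (ENSMUSG00000062515.3) spans chr3:10204088-10208576, minus strand. The 11 genes of the capillary endothelium list summed to 471 and 483 TPM in replicates 1 and 2, led by Cd36, a fatty acid transporter gene that fat cells also use, at 110 ± 18.7 TPM, Egfl7 at 97.1 ± 11.7 TPM and Plvap at 62.3 ± 2.30 TPM (SD, n = 2). The 9 macrophage genes summed to 105 and 144 TPM, all higher in replicate 2, led by Lyz2 at 27.5 ± 8.66 TPM, and by C1qa and C1qb at 20.05 ± 3.56 and 20.05 ± 4.62 TPM (SD, n = 2). None of these 20 genes was at 0, and their part in the Fabp4 level was not tested.

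Plin1, the perilipin that coats the droplets of fat cells, was level with Ucp1. It measured 128 TPM in replicate 1 and 141 TPM in replicate 2, a mean of 135 ± 8.93 TPM (SD, n = 2), with a log2 ratio of 0.20 (0.15 to 0.25). The order of Plin1 and Ucp1 differed between the animals: the log2 ratio of the Ucp1 level to the Plin1 level was 0.03 in replicate 1 and -0.28 in replicate 2. In the second deposited quantification, made from the reads by another route, Plin1 was the higher in both, at 281 and 295 TPM against 209 and 185 TPM for Ucp1. Plin1 (ENSMUSG00000030546.14) spans chr7:79720218-79732903, minus strand.

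Adipoq, the adiponectin gene and the marker among the 10 most tied to mature fat cells, measured 42.7 TPM in replicate 1 and 52.3 TPM in replicate 2, a mean of 47.5 ± 6.84 TPM (SD, n = 2). Its log2 ratio was 0.33 (0.23 to 0.42). Cidec, which helps small droplets merge into large ones, measured 17.8 and 22.1 TPM, with a log2 ratio of 0.34 (0.19 to 0.48). Cidea exceeded its paralogue Cidec by 1.01 ± 0.06 on the log2 scale (SD, n = 2). Adipoq exceeded Cidea in both animals, though their ranges over the animals overlapped. Adipoq (ENSMUSG00000022878.5) spans chr16:23146536-23158028, plus strand, and Cidec (ENSMUSG00000030278.11) chr6:113424634-113435760, minus strand.

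Lep, the gene of the satiety hormone leptin, was the member that differed most between the animals. It had 18 counts in replicate 1 (exact 95% Poisson interval 10.7 to 28.5) and 67 in replicate 2 (51.9 to 85.1), or 0.25 and 0.67 TPM. The log2 ratio from counts was 1.86 (1.12 to 2.73), a 3.64-fold higher value in replicate 2. The ratio of the deposited TPM was smaller, at 2.68-fold. In replicate 1 a transcript of 420 bases held 28.1% of the gene's TPM on 0.69 counts, and it held none in replicate 2. The second quantification went the other way, giving it 14.6% and 29.9%, and the gene 0.393 and 1.65 TPM, a wider difference. Lep (ENSMUSG00000059201.12) spans chr6:29060220-29073877, plus strand.

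**Figure D1:**
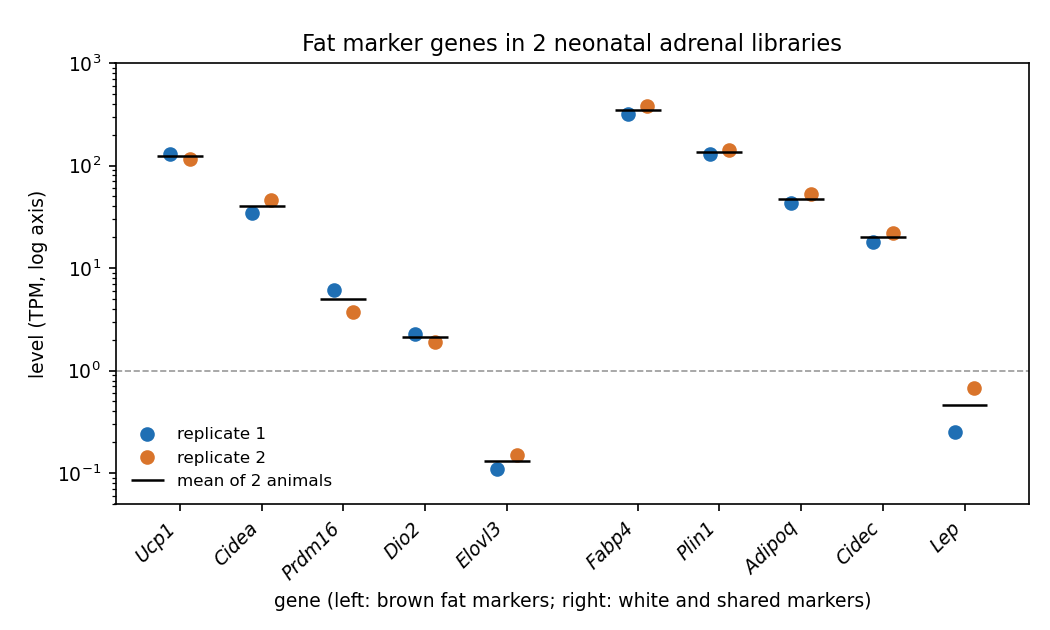
Level of each fat marker gene in TPM on a log axis; blue and orange points are replicates 1 and 2, black bars the mean of the 2 animals, and the dashed line 1 TPM. Fabp4 stands highest at 318 and 382 TPM, Ucp1 and Plin1 lie together between 116 and 141 TPM, and Lep and Elovl3 fall below 1 TPM in both animals.

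In order of mean level the members ran Fabp4, Plin1, Ucp1, Adipoq, Cidea, Cidec, Prdm16, Dio2, Lep and Elovl3. Of the neighbours in that order, Plin1 and Ucp1 overlapped over the animals, as did Adipoq and Cidea, and the other neighbours did not overlap. Added together, the 5 brown markers reached 174 TPM in the first animal and 168 TPM in the other, with Ucp1 the main part. For the 5 white or shared markers the sums were 507 and 598 TPM. Of the 10 genes, 8 reached 1 TPM in both animals, the exceptions being Lep and Elovl3. Of all 22015 nuclear protein-coding genes, 13054 did.

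The white or shared markers were all higher in replicate 2, while the brown markers divided. Of the 10, 7 were higher in replicate 2 and 3, namely Ucp1, Dio2 and Prdm16, in replicate 1. No member changed direction under the 8 other settings of scaling, counting and filtering. Those that change only the minimum count leave the ratio of a single gene as it is and could not have changed a direction. A larger prior, scaled to the library, could not have changed one either. Other scaling of the same counts shifts all genes nearly alike. Only the second quantification and the deposited TPM could move genes separately. Of the 8 members averaging at least 100 counts, 0 differed 2-fold between the animals, where 3.21% of all 13734 genes at this count did, 1.5% being higher in replicate 2 and 1.71% in replicate 1. For so few genes, 0 of 8 is near this background. The median log2 ratio was -0.17 over the 4 brown markers at this count and 0.31 over the 4 white or shared ones, against 0.02 over all genes, of which 55.3% were higher in replicate 2. The median absolute log2 ratio over all genes was 0.11. Kidney and pancreas genes were higher in replicate 1, and muscle, liver and macrophage genes in replicate 2, and the part of such tissue in the members' ratios was not tested. In bulk RNA, fewer cells of a type and less RNA per cell cannot be told apart.

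**Figure D2:**
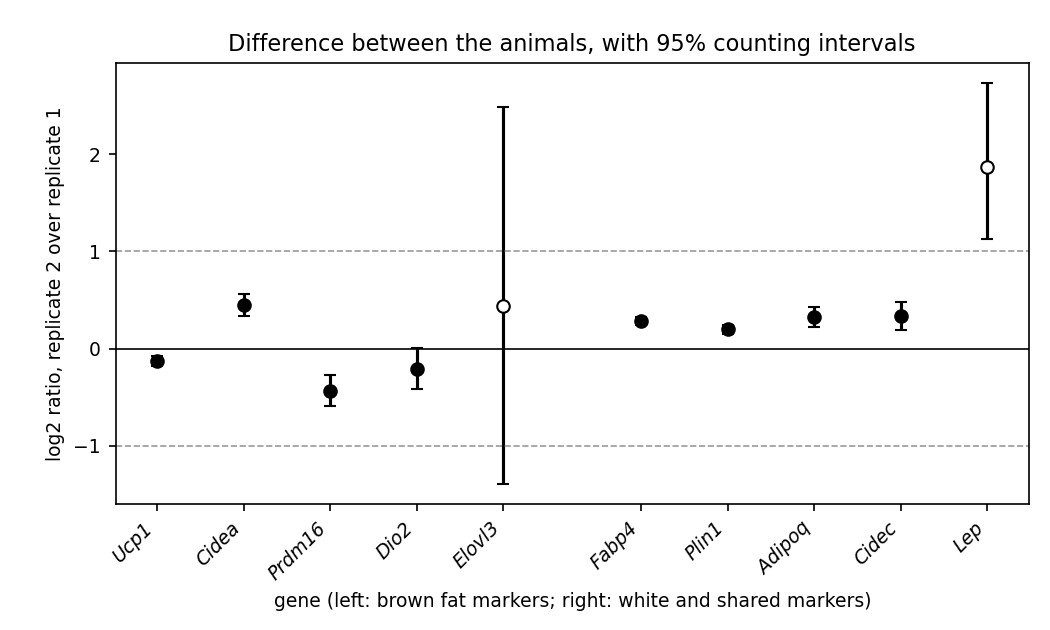
Log2 ratio of replicate 2 over replicate 1 for each marker, from TMM-scaled expected counts, with 95% counting intervals; filled points average at least 100 counts, open points fewer, and dashed lines mark 2-fold. All filled points lie between -0.43 and 0.45, and Lep stands apart at 1.86.

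With 2 animals, the likeness of 2 genes' patterns comes down to 1 ratio. The 5 protein-coding genes outside the list with the log2 ratio nearest to that of Ucp1 were Nectin3, Orai2, Tcf7l1, Hmbox1 and Unk, each at -0.12. There were 334 such genes within 0.01 of it, so likeness over 2 animals singles out no gene.

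The number of annotated transcripts ran from 1 to 13 among the members. Ucp1, Cidea and Dio2 each had 1 annotated transcript. For Fabp4, the spliced transcript held 98.1% of the gene's TPM in replicate 1 and 98.5% in replicate 2. A transcript of 4231 bases, annotated as a retained intron, held 9.11% and 7.50% of the gene's expected counts, and 31.6% and 31.9% of its counts in the second quantification. For Adipoq the longer transcript, of 1292 bases, held 93.8% and 92.35% of TPM, but 56.3% and 61.4% in the second quantification. For Plin1 the leading transcript, of 2817 bases, held 42.1% and 41.7% of TPM, and one of 647 bases 27.8% and 26.0%. In the second quantification the shorter was ahead, at 34.2% and 32.6% against 30.8% and 31.98%. Prdm16 had 13 annotated transcripts, of which one of 8429 bases took 69.9% and 79.1% of the expected counts.

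Several markers belong to families, and those of their relatives outside the naming rule are given for reference, chosen after their values were seen. Ucp2, an uncoupling protein gene expressed in many tissues, stood at 120.1 ± 3.97 TPM (SD, n = 2). Ucp1 exceeded it by 1.06-fold in replicate 1 and was 0.992 of it in replicate 2. In the second quantification Ucp2 was the higher in both animals, at a mean log2 ratio of Ucp1 to Ucp2 of -0.54. Ucp3, the uncoupling protein gene of muscle and brown fat, lies 6904 bases from Ucp2 on chromosome 7 and had 60 and 189 counts, a log2 ratio of 1.64 (1.23 to 2.10). Among fatty acid binding protein genes, Fabp4 exceeded Fabp5 by 3.02 ± 0.02 on the log2 scale (SD, n = 2). Fabp9, 6804 bases from Fabp4, had no expected count in either library. Such a 0 leaves room for a share of at most 9.42e-06% in replicate 1 and 9.11e-06% in replicate 2 (3 counts of the total). In the second quantification Fabp9 measured 0.186 TPM in replicate 1 and 0 TPM in replicate 2. Fabp3, the form of heart, muscle and brown fat, had 302 and 1509 counts, a log2 ratio of 2.31 (2.14 to 2.50).

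Among the perilipins, Plin1 exceeded Plin2, the form found in most cells, by 0.79 ± 0.0085 on the log2 scale (SD, n = 2), and Plin2 stood at 77.8 ± 4.70 TPM (SD, n = 2). Of the elongases, Elovl5 led at 84.9 ± 5.87 TPM (SD, n = 2), and Elovl3 was the lowest of the 7. Elovl7 was 2.16-fold higher in replicate 1, on 145 and 67 counts. Dio2 exceeded Dio3, the deiodinase that inactivates thyroid hormone, by 2.64 ± 0.57 on the log2 scale (SD, n = 2), where Dio3 itself measured 0.27 and 0.40 TPM. With a pseudocount of 1 TPM the difference was 1.22, so its size is uncertain at these low levels. Of the 19 family members listed beside the markers, 12 averaged at least 100 counts. Of these, 2 were 2-fold higher in replicate 2, namely Ucp3 and Fabp3, and 1, Elovl7, in replicate 1. Over all genes at this count, 3.21% differed 2-fold.

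**Figure D3:**
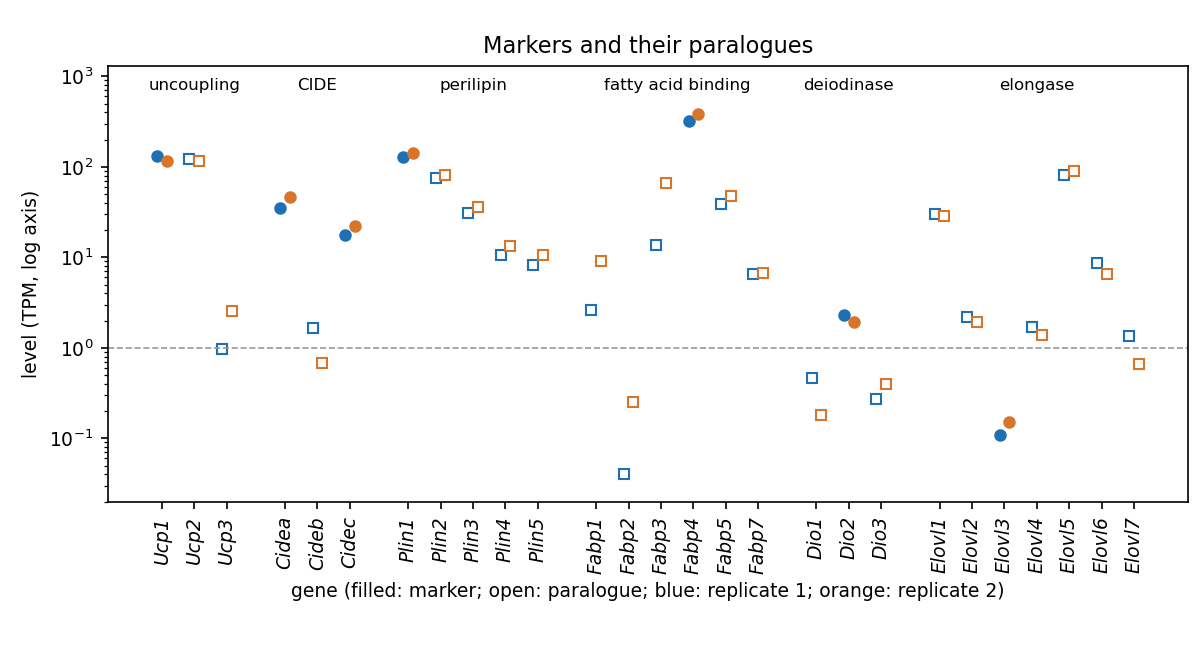
Levels in TPM on a log axis of the markers (filled circles) and their paralogues (open squares), by family; blue and orange are replicates 1 and 2, and the dashed line is 1 TPM. Ucp2 lies level with Ucp1, and Elovl3 is the lowest of the elongases; Fabp6 and Fabp9, at 0 TPM, are not drawn.

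Most other genes of the brown fat program were detected. Of 25 genes of the thermogenic program, 19 reached 1 TPM in both animals, where 13054 of all 22015 nuclear protein-coding genes did. Kcnk3, a potassium channel gene of brown fat that the adrenal cortex also expresses, led at 248 ± 5.30 TPM (SD, n = 2). The cytochrome oxidase subunit genes Cox8b and Cox7a1, of muscle and brown fat, followed at 105 ± 56.1 and 83.2 ± 28.9 TPM (SD, n = 2). Cox8b had 526 counts in replicate 1 and 1203 in replicate 2, a log2 ratio of 1.19 (1.041 to 1.340), and Cox7a1 had 571 and 981, a ratio of 0.78 (0.63 to 0.93). Over all genes averaging at least 100 counts, 3.21% differed 2-fold between the animals. Of the 18 genes of the program at this count, Cox8b and the small heat shock protein gene Hspb7 were at least 2-fold higher in replicate 2. Hspb7 had 84 and 557 counts. Slc27a2, a fatty acid transport gene also used by the kidney, was 2.29-fold higher in replicate 1, with 501 and 219 counts. All 4 kidney genes averaging at least 100 counts were higher in the same animal, and their part in its ratio was not tested.

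Some further members were named after their values were seen. Ebf2, a transcription factor gene of brown fat precursors, had 1159 and 1496 counts, and the coactivator gene Ppargc1a had 746 and 448, a log2 ratio of -0.74 (-0.91 to -0.57). Of the 18 genes averaging at least 100 counts, Ppargc1a was 1 of 4 that were higher in replicate 1, against 14 higher in replicate 2. Their median log2 ratio was 0.16. Over all genes at this count, 55.3% were higher in replicate 2. Zic1, a marker of the brown fat between the shoulder blades, had 1 and 3 counts, and Fgf21 had 0 in both. In the second quantification Fgf21 measured 0 TPM in replicate 1 and 0.073 TPM in replicate 2. Adrb3, the adrenergic receptor gene of fat cells, had 9 and 34 counts, a log2 ratio of 1.86 with a wide interval (0.82 to 3.16).

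Muscle genes were higher in the same animal as several of these. Of the 8 genes of the skeletal muscle list, 7 averaged at least 100 counts. All 7 were at least 2-fold higher in replicate 2, where 1.5% of all genes at this count were. Their median log2 ratio was 2.66. Acta1 led with 5303 counts in replicate 1 and 35881 in replicate 2, and no gene of the list was at 0. Cox8b, Cox7a1, Hspb7, Fabp3 and Ucp3, which muscle also expresses, were higher in the same animal, and the part of muscle RNA in their ratios was not tested. They were grouped here after their values were seen. Of the 18 thermogenic genes averaging at least 100 counts, 14 were higher in replicate 2 and 4 in replicate 1, Ppargc1a among the 4. The 12 family members at this count divided 6 and 6. Among the brown markers themselves, Cidea and Elovl3 were higher in replicate 2 and Ucp1, Prdm16 and Dio2 lower. The intervals of Elovl3 and Dio2 included no difference.

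Genes of white fat identity were divided between the animals. Of 14 genes, 8 were higher in replicate 2 and 6 in replicate 1, where 55.3% of all genes averaging at least 100 counts were higher in replicate 2. Of these, 9 averaged at least 100 counts, and 7 of these were higher in replicate 2, and the median log2 ratio was 0.24. The highest were Car3, a carbonic anhydrase gene of fat and muscle, at 312 ± 27.6 TPM, and the imprinted genes Nnat at 149.5 ± 13.8 and Mest at 138 ± 13.7 TPM (SD, n = 2). Below that count, and named after their values were seen, the homeobox genes Hoxc10 and Hoxc9 were higher in replicate 1, with 112 and 24.59 counts for Hoxc10 (log2 ratio -2.17, -2.86 to -1.53) and 119 and 64 for Hoxc9 (-0.89, -1.36 to -0.45). Over all genes averaging at least 100 counts, 3.21% differed 2-fold. Of the 9 at this count, Agt, the angiotensinogen gene of liver and fat, alone did. It had 164 and 432 counts and a ratio of 1.39 (1.13 to 1.66). The 5 liver genes were all at least 2-fold higher in the same animal, with none at 0, and their part in the Agt ratio was not tested. Of the 6 beige fat markers, 4 reached 1 TPM in both animals, where 13054 of 22015 nuclear protein-coding genes did. The beige markers were led by Slc27a1 at 38.6 ± 1.29, Tmem26 at 6.28 ± 0.106 and Cd40 at 2.73 ± 0.417 TPM (SD, n = 2).

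Regulators of fat cell formation and lipid enzymes were detected throughout. All 12 adipocyte transcription factor genes reached 1 TPM in both animals, where 13054 of 22015 nuclear protein-coding genes did. None of the 12 differed 2-fold, which for so few genes is near the 3.21% over all genes averaging at least 100 counts. Cebpb, Nfia and Srebf1 led at 92.1 ± 14.5, 75.4 ± 1.75 and 45.6 ± 3.85 TPM (SD, n = 2). Pparg, the nuclear receptor gene of fat cell formation, named after its values were seen, had 454 and 665 counts, a log2 ratio of 0.55 (0.37 to 0.72). All 16 genes of lipid storage and lipolysis reached 1 TPM in both. Of all genes averaging at least 100 counts, 55.3% were higher in replicate 2, against 15 of these 16, whose median ratio was 0.20. Beside Plin2, the highest were the acyltransferase gene Gpam at 73.1 ± 6.56 TPM and the lipase gene Pnpla2 at 64.5 ± 4.00 TPM (SD, n = 2). The 11 genes of fatty acid synthesis, led by Acly at 163 ± 3.56, Me1 at 126 ± 6.36 and Gpd1 at 97.2 ± 6.82 TPM (SD, n = 2), divided evenly, with 6 higher in replicate 2. Steroid-making cells store lipid and use many of these genes as well, so they do not by themselves mark fat cells. The 7 adrenal cortex genes and the 5 adrenal medulla genes were also all higher in replicate 2, with median log2 ratios of 0.14 and 0.29, the direction of the white markers.

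**Figure D4:**
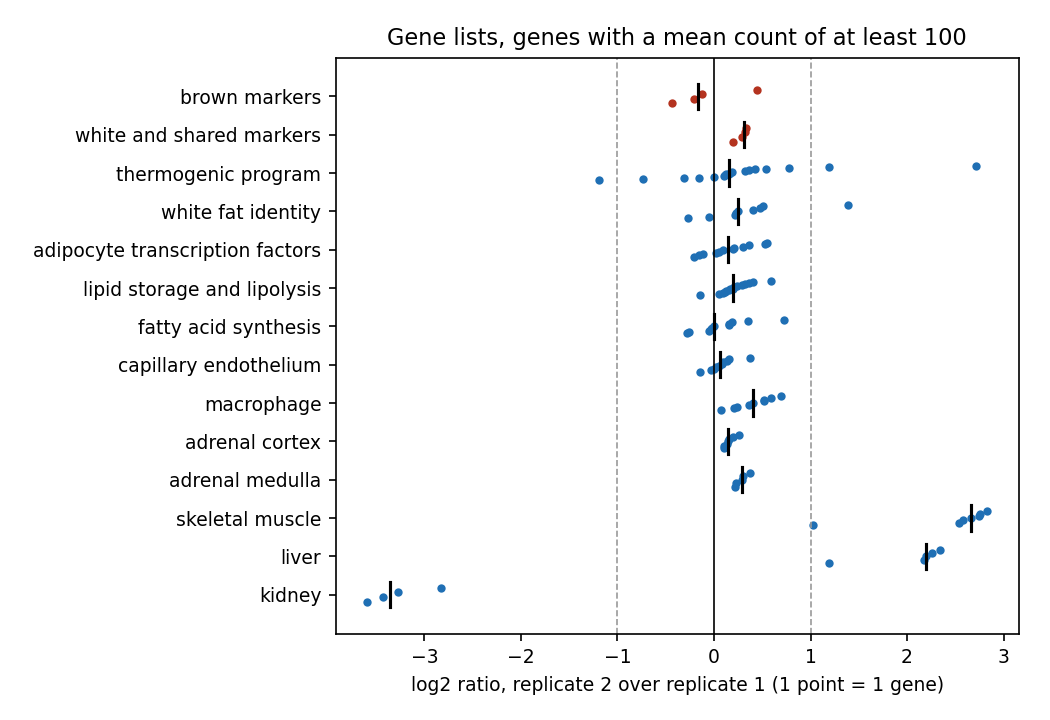
Log2 ratio of replicate 2 over replicate 1 for genes averaging at least 100 counts, by list; each point is a gene, black bars are list medians, dashed lines mark 2-fold, and the marker genes are red. The markers lie inside 2-fold, while muscle and liver genes lie to the right and kidney genes to the left; pancreas genes, far to the left, are not drawn.

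The receptors for the hormones of fat were also measured. Adipor1 and Adipor2, the adiponectin receptor genes, stood at 39.3 ± 1.2 and 55.6 ± 7.45 TPM, and the thyroid hormone receptor gene Thra at 65.2 ± 0.665 TPM (SD, n = 2). The leptin receptor gene Lepr, named after its values were seen, had 551 and 584 counts in replicates 1 and 2. None of the 6 receptor genes averaging at least 100 counts differed 2-fold, where 3.21% of all genes at this count did.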

How the data were processed

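The 2 total RNA-seq libraries of female adrenal gland tissue were used as 1 group. Per the file headers and the deposited notes, the authors' gene tables give expected counts, TPM and FPKM, and their transcript tables add each transcript's percent of its gene's TPM, from transcriptome alignments to mm10 with annotation M21. A second table made by the authors from the reads gives estimated counts and TPM per transcript, summed here to genes. Aligners, quantifiers and their versions were not given in the sources used here. Genes were matched by identifier to GENCODE M21.

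Levels are deposited TPM. Log2 ratios used expected counts scaled by TMM (factors 1.02 and 0.985) with a prior of 0.5 counts. Genes averaging at least 100 counts were called at 2-fold, a rule of size: 1 library on each side allows no test. Intervals are 95% exact conditional binomial or Poisson intervals for counting error only. They treat reads as independent. Reads carrying no molecular identifier are not independent molecules, so the intervals may be too narrow even for counting error. Log2 ratios of levels used a pseudocount of 0.01 TPM. Members and lists were chosen with earlier results of these data known. The naming rule took all 10 members, the 3 highest genes of each other list, those differing 2-fold and the 5 nearest to Ucp1 in ratio; the text gives those that bear on the members. The log2 ratio, its counting interval and the 2-fold rule were checked on simulated Poisson counts with no spread between animals. Other steps were not simulated. Tools were Python 3.11.15, pandas 2.3.3, scipy 1.17.1, R 4.3.3, edgeR 4.0.16 and DESeq2 1.42.0.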

Additional observations from a re-analysis of the deposited data

How the results depend on the processing

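No paired analysis was possible because there is 1 group. The count of 0 members differing 2-fold became 1 with a minimum mean count of 20 and 1 with no minimum, Lep in both cases. Over all genes, 5.67% differed 2-fold at a minimum of 20 and 16.6% at a minimum of 1. For so few members, 1 is near these shares. Median log2 ratios of the brown and of the white or shared markers kept their direction under all 8 alternatives, from -0.25 to -0.12 and from 0.23 to 0.33. A larger prior cannot change the sign of a gene's ratio, and other scaling of the same counts shifts all genes nearly alike. Summed TPM of the brown markers, 171 ± 4.2 (SD, n = 2), was 293 in the second quantification and 469.7 when rescaled over nuclear protein-coding genes. That of the white or shared markers, 553 ± 64.1 (SD, n = 2), was 1028 and 1518. Without replicate 1 or replicate 2 in turn, these sums ranged from 168 to 174 TPM and from 507 to 598 TPM. Leaving 1 of 2 replicates out returns the value of the other, so this is no check of stability. The second quantification gave each member a higher TPM, by 1.59-fold for Ucp1 to 2.44-fold for Cidec, against a median of 1.82-fold over 13022 protein-coding genes; the cause was not tested. Ratios of single members stayed within their counting interval except those of Fabp4 by total counts, of Ucp1, Plin1 and Fabp4 by spike-in scaling, and of Prdm16 and Plin1 by deposited TPM. Changing the minimum count leaves these ratios as they are. Depth limits Elovl3 and Lep, on 5 to 67 counts.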
